A study of Mus musculus with 12 samples.

Results

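Cadherins, catenins and the scaffold proteins of cell junctions were examined in the brain of mice lacking the connexin gene Gja9. The group holds 9 genes: the classical cadherins Cdh1, Cdh2 and Cdh5, the catenins Ctnna1, Ctnna2, Ctnnb1 and Ctnnd1, and the scaffolds Tjp1 and Dlg1. They were chosen by name, as probes whose single gene symbol in the array's probe table is one of the 9 and which have a value in every sample. All 9 genes were found among 6427 measured genes, through 20 of their 33 cDNA clones, and the other 13 clones had no value. The 20 clones are spread as 1 for Cdh1, 5 for Cdh2, 2 for Cdh5, 2 for Ctnna1, 1 for Ctnna2, 3 for Ctnnb1, 3 for Ctnnd1, 2 for Tjp1 and 1 for Dlg1. Brains came from C57Bl/6j mice at postnatal day 10 in 3 genotypes of 4 samples each: wildtype, Gja9 (-/-), called Gja9_null here, and Gja9 (+/-), called Gja9_het. The comparisons ask how losing 1 or both copies of Gja9 alters brain RNA. The labels name no treatment and do not describe the knockout allele. Extracts of 2 samples of the same genotype, one in Cy5 and one in Cy3, were hybridised together on each of 6 spotted cDNA arrays, so each genotype rests on 2 arrays. A value is the log2 signal of a probe relative to the mean signal of its sample, and 1 unit is a doubling.

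The labels' Gja9 is today named Gjd2 and encodes connexin36, the gap junction protein of electrical synapses between neurons. Classical cadherins span the membrane and bind the same kind of cadherin on the next cell. Inside the cell their tails bind beta-catenin and p120-catenin, and alpha-catenin links the complex to actin. Beta-catenin is also the effector of canonical Wnt signalling. The scaffold ZO-1, encoded by Tjp1, binds tight junction proteins and several connexins, connexin36 among them, and Dlg1 is a scaffold of the same family found at epithelial junctions and at synapses.

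The targeted gene was not read out here, so the labels could not be checked against it. The labels give neither the pairing of samples on arrays nor separate animals beyond calling the samples biological replicates. Read from the values, samples 1 and 2 of each genotype shared an array and samples 3 and 4 shared the other. Over all probes, 2 colours of an array correlated at 0.99, and those of a shared genotype but separate arrays at 0.86 to 0.92. Samples of different genotypes correlated at 0.81 to 0.92. The first Gja9_null array, with samples 1 and 2, stood apart: its median absolute deviation from each feature's median over the 6 arrays was 0.34 log2 units, against 0.14 to 0.20 on the others. Of 12 listed neuron markers, 6 had values, among them Map2, Tubb3 and Syt1.

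None of the 9 genes passed the test in any comparison of genotypes. In Gja9_null against wildtype, 5 of the 9 had higher and 4 lower values, where 41.1 percent of all features had higher ones. The median difference of the 9 was 0.03 log2 units, against -0.10 over all features. Differences lay between -1.46 (Cdh1) and 0.44 (Ctnnd1), with standard errors of 0.26 to 0.63. Limma with Benjamini-Hochberg adjustment called 0 of 9 at an adjusted p under 0.05, where it called 0.326 percent of all 9514 features, and the smallest adjusted p of the 9 was 0.193. At an unadjusted p under 0.05 there was 1 of 9, Cdh1, against 11.6 percent of all features. The 4 samples of Gja9_null did not overlap with the 4 of wildtype for 3 of the 9 genes (Cdh1 and Cdh5 lower, Ctnnd1 higher), where this held for 23.1 percent of all features. These shares do not set the 9 genes apart from the other features. As RNA came from brain tissue of many cell types, fewer cells of a type and less RNA per cell cannot be told apart.

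In Gja9_het against wildtype, differences ran from -0.49 (Dlg1) to 0.46 (Cdh1), with a median of 0.13 against 0.03 over all features. Of the 9, 6 had higher values, against 54.4 percent of all features. Limma called 0 of 9, as it called 0 percent of all features, and 0 of 9 fell under an unadjusted p of 0.05, against 2.19 percent. Ctnnb1 was the 1 gene whose samples did not overlap, where 14.8 percent of all features did not. With the replicate number as a block in place of the array, 0 of the 9 were called, while the count over all features went from 0 to 135. Gja9_null against Gja9_het called 0 of 9 genes, against 0.273 percent of all features, and 1 of 9, again Cdh1, had an unadjusted p under 0.05, against 15 percent. Higher values were seen for 3 of the 9, against 36.9 percent of all features. The median difference was -0.03, against -0.17 over all features, and Cdh1 and Cdh5 did not overlap, against 32.7 percent of all features. The 3 comparisons share samples in pairs and are not independent of each other.

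**Figure D1:**
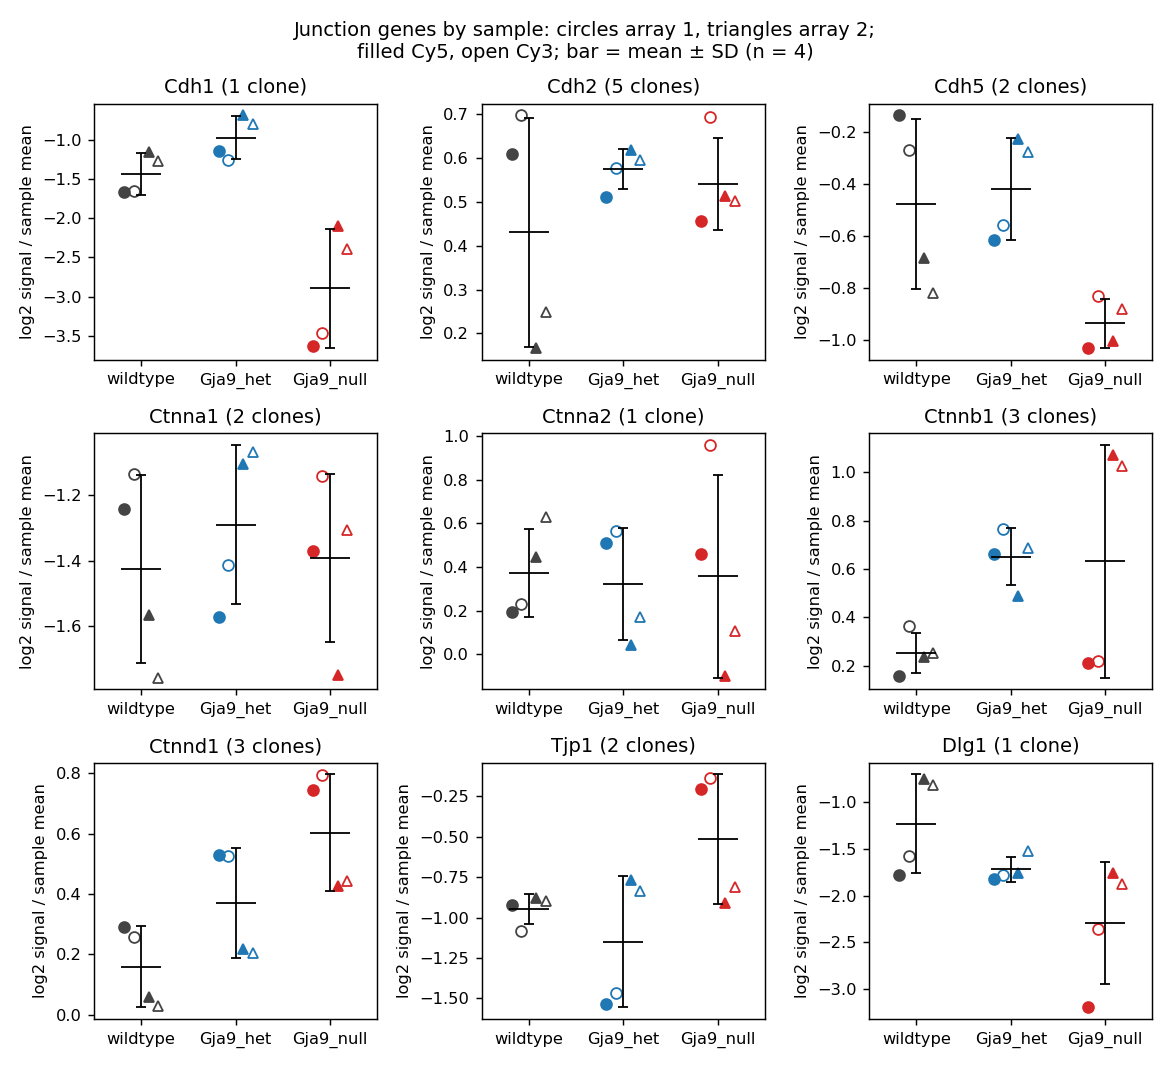
Log2 signal relative to the sample mean (vertical axis, its own scale in each panel) for the 9 junction genes in wildtype, Gja9_het and Gja9_null brains, with clones averaged. Points are samples, shapes are arrays, filled points Cy5 and open points Cy3, and bars are the mean ± SD of 4 samples; the 2 points of an array mostly lie together, and Cdh1 lies lower in all 4 Gja9_null samples.

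Cdh1 encodes E-cadherin, the cadherin of epithelia. Its 1 measured clone, probe 27657, read -1.67, -1.65, -1.15 and -1.27 in wildtype samples 1 to 4. In Gja9_null it read -3.62, -3.46, -2.10 and -2.39. In Gja9_het it read -1.14, -1.26, -0.69 and -0.80. All Gja9_null samples lay below all samples of the other genotypes, and those of the first Gja9_null array lay lowest, while wildtype and Gja9_het overlapped. The means were -1.43 ± 0.26 in wildtype, -2.89 ± 0.76 in Gja9_null and -0.97 ± 0.27 in Gja9_het (SD, n = 4 samples on 2 arrays). The order was thus Gja9_null below wildtype below Gja9_het, of which no step passed the test.

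The fitted difference of Cdh1 in Gja9_null from wildtype was -1.46 ± 0.42 (SE), a 2.75-fold lower signal with a 95% interval of -2.37 to -0.55 and a limma adjusted p of 0.193. From Gja9_het it was -1.92 ± 0.42, 3.79-fold lower, with a limma adjusted p of 0.0723. Gja9_het differed from wildtype by 0.46 ± 0.42. The clone is among the dimmest probes, with a mean signal in the range that the alternative without dim probes leaves out, so the fold is that of a dim probe. Without the first Gja9_null array the difference from wildtype was -0.81 and that from Gja9_het -1.27. The 53 probes with values within 50 probe numbers of the Cdh1 clone, itself included, also read lower on the first Gja9_null array. Their median deviation was -0.62 and -0.59 in the samples of that array, against -0.03 to 0.24 in the other 10. When each sample was centred on such neighbours (local centring), the Cdh1 differences were -1.15 and -1.60, and limma called both (adjusted p = 0.0495 and 0.0193). With quantile normalization the differences were -1.05 and -1.48 (limma adjusted p = 0.404 and 0.18). With the colours of each array averaged, the adjusted p values were 0.276 and 0.125. Over the 23 alternatives the adjusted p ran from 4.4e-09 to 0.534 against wildtype and from 2.9e-10 to 0.18 against Gja9_het, the lowest of each under an array pairing that the correlations contradict.

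Cdh2 encodes N-cadherin, the main cadherin of neurons and glia. The mean of its 5 clones was 0.61, 0.70, 0.17 and 0.25 in wildtype, 0.46, 0.69, 0.51 and 0.50 in Gja9_null, and 0.51, 0.58, 0.62 and 0.59 in Gja9_het. The genotypes overlapped, and the widest gap lay inside wildtype, between its 2 arrays (0.45). Gja9_null differed from wildtype by 0.11 ± 0.29, with a 95% interval of -0.51 to 0.73, and Gja9_het by 0.15 ± 0.29. Its SD over the 12 samples, 0.16, stood at percentile 3.68 among all features, but the SD of its single clones ran from 0.30 to 0.60. The clones did not move together, as described further on, with a median Pearson correlation of -0.02 over their 10 pairs. Their mean therefore varied less than each clone did.

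Cdh5 encodes VE-cadherin, the cadherin of the endothelium of blood vessels. The mean of its 2 clones was -0.14, -0.27, -0.69 and -0.82 in wildtype, and -1.03, -0.83, -1.0 and -0.88 in Gja9_null. In Gja9_het it was -0.62, -0.56, -0.23 and -0.28. Every Gja9_null sample lay below every other sample, by a narrow margin over the second wildtype array. The difference from wildtype was -0.46 ± 0.34 (limma adjusted p = 0.643) and that from Gja9_het -0.51 ± 0.34 (adjusted p = 0.481). Of the 2 clones, the first differed from wildtype by -0.03 ± 0.40 and the second by -0.89 ± 0.42, so the difference from wildtype rests on the second. From Gja9_het they differed by -0.37 ± 0.40 and -0.66 ± 0.42.

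Ctnna1 and Ctnna2 encode alpha-catenins, of which alpha-N-catenin (Ctnna2) is the neuronal form. Ctnna1 read -1.24, -1.14, -1.56 and -1.76 in wildtype, -1.37, -1.14, -1.75 and -1.31 in Gja9_null, and -1.57, -1.41, -1.11 and -1.07 in Gja9_het. Ctnna2 read 0.19, 0.23, 0.44 and 0.63 in wildtype, 0.46, 0.96, -0.10 and 0.11 in Gja9_null, and 0.51, 0.56, 0.04 and 0.17 in Gja9_het. For both genes the 3 genotypes overlapped, and arrays of the same genotype lay farther apart than the genotype means. In Gja9_null, Ctnna1 differed from wildtype by 0.03 ± 0.42 and Ctnna2 by -0.02 ± 0.38. Their 95% intervals, -0.85 to 0.92 and -0.84 to 0.80, leave room for changes of nearly 1 log2 unit either way. The sign of both turned under some scalings.

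Ctnnb1 encodes beta-catenin. The mean of its 3 clones was 0.16, 0.36, 0.24 and 0.25 in wildtype, and 0.66, 0.76, 0.49 and 0.69 in Gja9_het. In Gja9_null it was 0.21 and 0.22 on the first array, and 1.07 and 1.02 on the second. Gja9_het lay above wildtype in all samples, while the arrays of Gja9_null lay on either side of Gja9_het. Gja9_het differed from wildtype by 0.40 ± 0.33 (limma adjusted p = 1.0) and Gja9_null by 0.38 ± 0.33 (adjusted p = 0.712). The difference of Gja9_het rests on the second clone, at 1.09 ± 0.47, and was 0.049 without dim probes, which leaves that clone out. Without the first Gja9_null array the difference of Gja9_null was 0.80. Around the second Ctnnb1 clone (probe 25948), the neighbouring probes of the first Gja9_null array deviated by -1.06 and -0.90.

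Ctnnd1 encodes p120-catenin, which holds cadherins at the membrane. The mean of its 3 clones was 0.29, 0.26, 0.06 and 0.03 in wildtype, 0.53, 0.52, 0.22 and 0.20 in Gja9_het, and 0.75, 0.79, 0.43 and 0.44 in Gja9_null. All Gja9_null samples lay above all wildtype samples, with Gja9_het between and overlapping both. The difference of Gja9_null from wildtype was 0.44 ± 0.26 (limma adjusted p = 0.546), and 0.28 without the first Gja9_null array.

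The difference of Ctnnd1 in Gja9_null rests on 1 clone. Its first clone, probe 2746, read 0.36, 0.35, 0.31 and 0.23 in wildtype, 0.85, 0.85, 0.57 and 0.53 in Gja9_het, and 2.61, 2.71, 1.34 and 1.39 in Gja9_null. No genotype overlapped with another at this clone, with wildtype lowest and Gja9_null highest. Tested alone among 13443 single probes, it differed from wildtype by 1.70 ± 0.38 in Gja9_null (limma adjusted p = 0.0922) and by 0.38 ± 0.38 in Gja9_het. Gja9_null and Gja9_het differed by 1.31 ± 0.38 (adjusted p = 0.173). The neighbouring probes did not follow this order, with median deviations of -0.62 to 0.44 in wildtype and -0.36 to 0.24 in Gja9_null. After local centring, chosen for single clones after seeing the data, Gja9_null differed from wildtype by 1.66 (adjusted p = 0.0332) and Gja9_het by 0.06, so little of the step to Gja9_het remained. Against Gja9_het the locally centred difference was 1.60 (adjusted p = 0.0361). Without the first Gja9_null array it differed from wildtype by 1.05 (adjusted p = 0.277), the highest adjusted p of the 3 alternatives run for single clones. The other clones of Ctnnd1 did not show it, with differences of -0.22 ± 0.33 and -0.14 ± 0.35 in Gja9_null against wildtype.

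Tjp1 encodes ZO-1. The mean of its 2 clones was -0.92, -1.08, -0.88 and -0.90 in wildtype, -0.21, -0.14, -0.91 and -0.81 in Gja9_null, and -1.53, -1.47, -0.77 and -0.83 in Gja9_het. The first Gja9_null array lay high and the first Gja9_het array low, while the second arrays of both lay beside wildtype. The difference from wildtype was 0.43 ± 0.33 in Gja9_null (limma adjusted p = 0.671) and -0.21 ± 0.33 in Gja9_het. Gja9_null and Gja9_het differed by 0.63 ± 0.33 (adjusted p = 0.395). Without the first Gja9_null array the difference of Gja9_null from wildtype was 0.09. ZO-1 is the member that binds connexin36 itself, and these arrays showed no change in its RNA that passed the test, with a 95% interval of -0.28 to 1.14 for Gja9_null against wildtype.

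Dlg1 encodes SAP97, a scaffold with PDZ domains. Its 1 clone, probe 1423, read -1.78, -1.57, -0.75 and -0.81 in wildtype, -3.20, -2.35, -1.76 and -1.88 in Gja9_null, and -1.82, -1.78, -1.75 and -1.53 in Gja9_het. Gja9_null and wildtype overlapped at the first wildtype array. The difference of Gja9_null from wildtype was -1.07 ± 0.63 (limma adjusted p = 0.548) and that of Gja9_het -0.49 ± 0.63. Without the first Gja9_null array the difference of Gja9_null was -0.59 from wildtype and -0.10 from Gja9_het. Its neighbouring probes differed between Gja9_null and wildtype by -0.89, and after local centring the Dlg1 difference was -0.18. Against Gja9_het the value of -0.58 turned to 0.14.

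**Figure D2:**
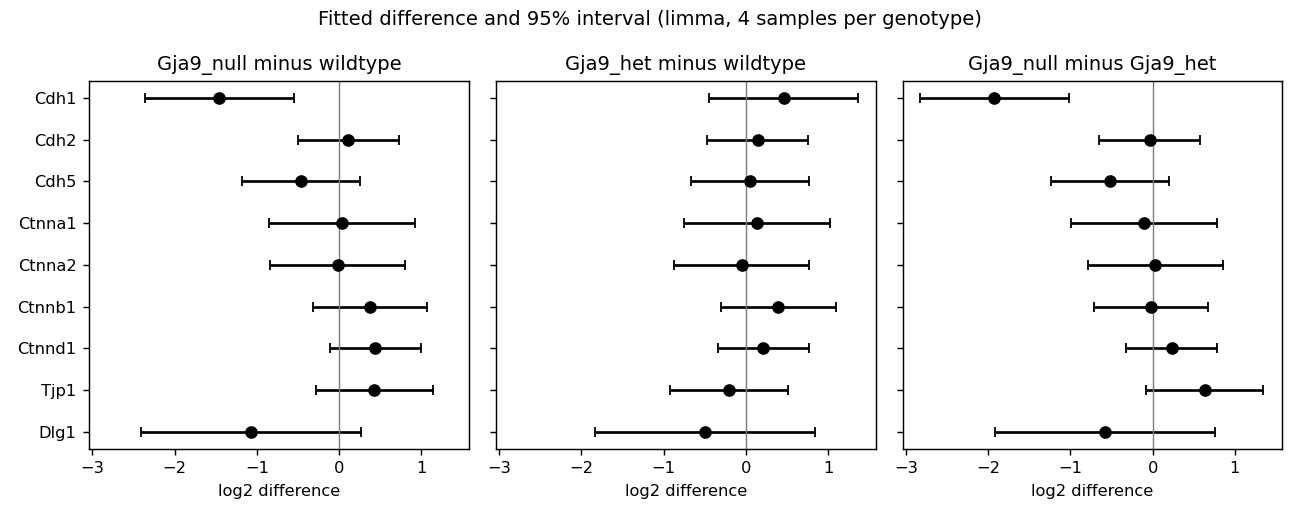
Fitted log2 differences (horizontal axis) of the 9 junction genes in the 3 comparisons, with 95% intervals from limma. The intervals of Cdh1 in Gja9_null against wildtype (-2.37 to -0.55) and against Gja9_het lie below 0, and all other intervals cross 0; no gene passed after adjustment over all features.

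Clones of the same gene seldom moved together. Tested singly, the 20 clones split evenly in Gja9_null against wildtype, with 10 higher and 10 lower and a range of -1.46 to 1.70, where 43.4 percent of all single probes were higher. Limma called 0 of 20, against 0.126 percent of all single probes, and 3 of 20 had an unadjusted p under 0.05 (Cdh1, Ctnnd1 clone 1 and Cdh5 clone 2), against 10.5 percent. In Gja9_het against wildtype, 0 of 20 were called, against 0 percent of single probes, and 1 of 20 had an unadjusted p under 0.05, against 1.79 percent. Values were higher for 11 of 20, against 52.9 percent. That clone was the second of Ctnnb1, which differed by 1.09 ± 0.47, where the other clones of the gene differed by 0.16 and -0.06. In Gja9_null against Gja9_het, 0 of 20 were called, against 0 percent, and 3 of 20 had an unadjusted p under 0.05 (Cdh1, Ctnnd1 clone 1 and Tjp1 clone 1), against 13.2 percent. Values were higher for 10 of 20, against 39.3 percent. The samples did not overlap for 4, 4 and 5 of 20 clones in the 3 comparisons in this order, against 22.2, 14.8 and 31.6 percent of all single probes.

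Over the 12 samples, which lie on 6 arrays, the 19 pairs of clones of the same member gene had a median Pearson correlation of 0.01. The 5849 such pairs over all genes had a median of 0.06. Among the members, the clones of Tjp1 tracked each other best, at 0.84, though at 0.06 after local centring. Clones 1 and 5 of Cdh2 ran opposite, at -0.93, and at -0.37 after local centring. Clone 1 read 0.36, 0.53, 1.23 and 1.11 in wildtype samples 1 to 4, while clone 5 read 0.45, 0.40, -1.12 and -0.81. Between these arrays of wildtype, N-cadherin was thus higher by 1 clone and lower by the other. A gene mean over clones here averages values that differ beyond the colours of an array, whose median gap for the members was 0.12.

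**Figure D3:**
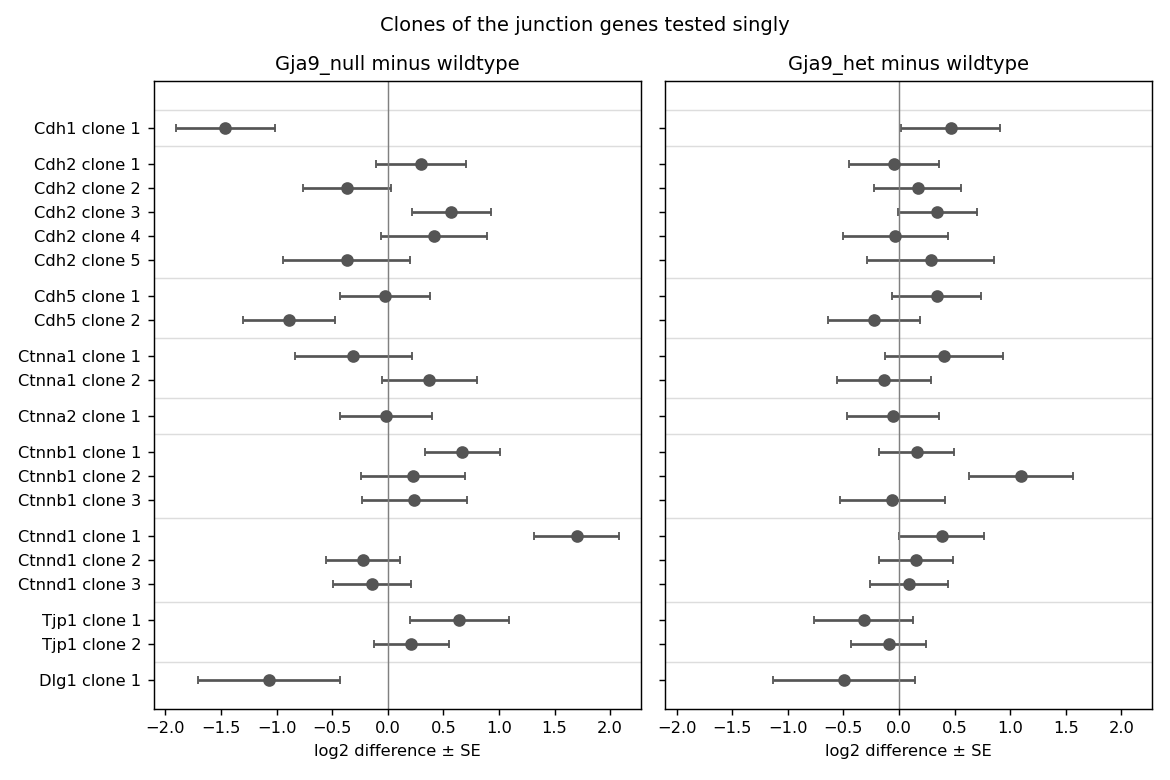
Log2 difference (horizontal axis) ± SE from limma on single probes for each of the 20 clones, in Gja9_null and Gja9_het against wildtype. Ctnnd1 clone 1 lies at 1.70 in Gja9_null while the other clones of Ctnnd1 lie at -0.22 and -0.14, and the 5 clones of Cdh2 lie on both sides of 0.

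Clones differed in how far they varied with the probes beside them in number. The probes within 50 numbers of a clone include the clone itself. Over the 12 samples, the correlation of a clone with the median deviation of the probes within 50 numbers had a median of 0.68 over the 20 clones and of 0.72 over all 13443 probes. It was 0.93 for Dlg1, 0.95 for Cdh2 clone 1 and 0.83 for Cdh1. It was -0.23 for both Cdh2 clone 2 and Ctnnd1 clone 2, 0.30 for Ctnnb1 clone 1 and 0.31 for Cdh2 clone 4. It was 0.10 for Ctnnd1 clone 1, whose SD over the samples (0.86) was above that of 96.5 percent of probes. How probe numbers map to spots was not given in the sources used here.

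**Figure D4:**
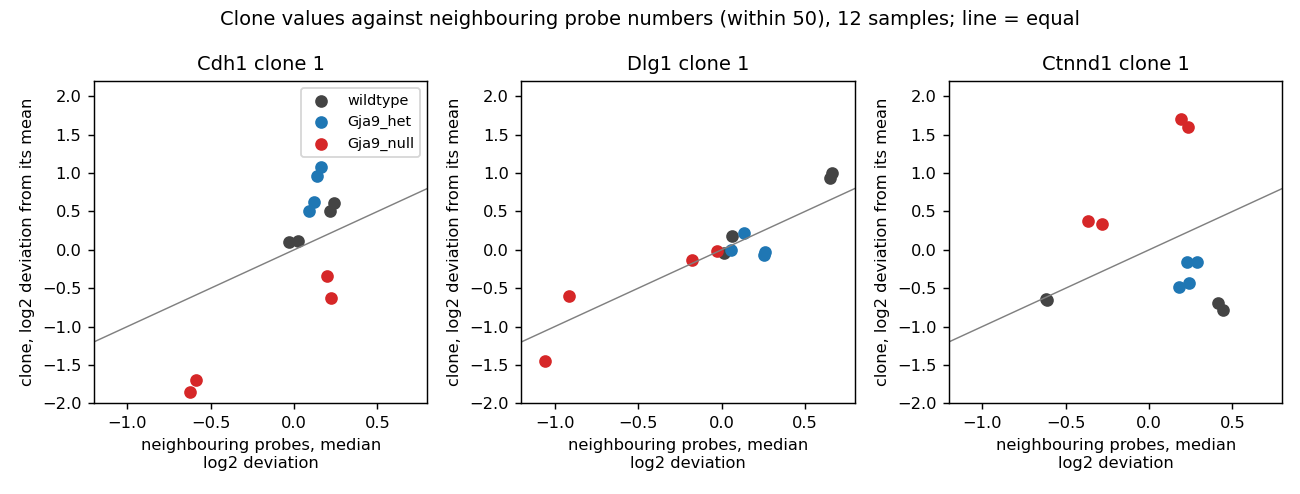
Deviation of a clone from its own mean (vertical axis, log2) against the median deviation of the probes within 50 probe numbers (horizontal axis, log2) in the 12 samples, with a line of equal values. The clone itself is among the probes of that median. Dlg1 follows the line, Cdh1 falls below it in all 4 Gja9_null samples, and Ctnnd1 clone 1 lies above it in all 4 Gja9_null samples.

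The 36 pairs of the 9 genes had a median correlation of -0.06 over the 12 samples, and of 0.10 after local centring, against 0.03 over all pairs of features before it, and all these points share the 6 arrays. Cdh1 and Dlg1 had the highest, 0.75, which became 0.02 after local centring. Cdh1 and Cdh5 stood at 0.64, and at 0.63 after local centring. Ctnnd1 ran opposite to Dlg1 (-0.88) and to Cdh1 (-0.77), and less so after local centring (-0.49 and -0.64). Cdh2 and Ctnna1 stood at 0.72 and 0.58.

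The genes most like each member over the 12 samples were named by the highest Pearson correlation of log2 values. For Cdh1 they were AI463012 (0.99) and Ctps (0.99), for Cdh5 Snw1 (0.96) and Hnrnpm (0.95), and for Cdh2 Col4a1 (0.94) and Pcm1 (0.92). For Ctnna1 they were Erbb3 (0.95) and Epb41l3 (0.89), and for Ctnna2 Dennd4c (0.95) and Aar2 (0.93). For Ctnnb1 they were Sh3gl1 (0.96) and Dcaf7 (0.89), and for Ctnnd1 Azin1 (0.98) and Ilrun (0.97). For Tjp1 they were Acp1 (0.99) and Gm5576 (0.97), and for Dlg1 Mapre2 (0.96) and Elp2 (0.95). With this many genes and 6 arrays such values arise easily, and after local centring they ran from 0.21 (Ilrun) to 0.99 (AI463012). The AI463012 probe lies 157 numbers from that of Cdh1.

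Other genes of cell junctions and of beta-catenin signalling were read from 6 lists with 76 distinct measured genes. Limma called 0 of the 76 in each of the 3 comparisons, against 0.326, 0 and 0.273 percent of all features. At an unadjusted p under 0.05 there were 11 in Gja9_null against wildtype, 2 higher and 9 lower, where 2.41 percent of all features were higher and 9.22 percent lower. There were 0 in Gja9_het against wildtype, against 2.19 percent. There were 9 in Gja9_null against Gja9_het, 2 higher and 7 lower, where 3.64 percent of all features were higher and 11.3 percent lower. The median difference of the 76 in Gja9_null from wildtype was -0.15, against -0.10 over all features.

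In Gja9_null against wildtype, 41.1 percent of all features had higher values, and their median difference was -0.10. Among 14 other measured cadherins of 55 listed, 3 had higher and the rest lower values, with a median of -0.17. Of these, the desmosomal cadherins Dsc2 and Dsg2 differed by -1.15 ± 0.39 and -1.05 ± 0.36 (limma adjusted p = 0.265 and 0.287), and Clstn3, a calsyntenin of synapses, by -0.95 ± 0.36. Against Gja9_het they differed by -1.08, -1.19 and -0.98. Of the other catenins and adherens junction genes, 13 of 25 were measured, with a median of -0.15 in Gja9_null against wildtype. Nectin2, an immunoglobulin-type adhesion receptor, differed by -1.12 ± 0.39, Vcl, encoding vinculin, by -0.61 ± 0.31, and Pkp3, encoding the desmosomal plakophilin 3, by -1.0 ± 0.51. Lima1, an actin-binding partner of alpha-catenin, differed from Gja9_het by -1.17 ± 0.33 (adjusted p = 0.135), Nectin2 by -0.78 and Pkp3 by -0.99.

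Of the other tight junction genes 14 of 41 were measured, with a median of -0.17 in Gja9_null against wildtype. Pard3, a polarity scaffold of the Par complex, differed by -1.50 ± 0.49 from wildtype and by -2.37 ± 0.49 from Gja9_het, the nearest of the 76 to the threshold (limma adjusted p = 0.0652). Its difference from wildtype was -0.07 after local centring. Cldn7, an epithelial claudin, differed by -1.06 ± 0.42 and -1.28 ± 0.42, Prkcz, an atypical protein kinase C of the Par complex, by 0.44 from wildtype, and Esam, an endothelial adhesion receptor, by -0.58 from Gja9_het. Of 28 MAGUK scaffolds and their partners 12 were measured, with a median of -0.09. Mpp7, a scaffold that binds Dlg1, differed by 0.94 ± 0.32 from wildtype, Dlgap1 by -0.93 ± 0.47 and Mpp1 by -0.51. From Gja9_het, Dlg4, encoding the postsynaptic scaffold PSD-95, differed by -0.64 ± 0.57, Dlgap1 by -0.49 and Mpp1 by -0.37.

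Of 62 genes of beta-catenin and Wnt signalling 21 were measured, with a median of -0.09 in Gja9_null against wildtype. Sfrp1, a secreted Wnt antagonist, differed by 0.73 ± 0.27, Fzd5, a Wnt receptor, by -1.0 ± 0.46 and Tle3, a corepressor, by -1.07 ± 0.53. From Gja9_het, Tcf7l2, a transcription factor that binds beta-catenin, differed by -1.50 ± 0.52 (limma adjusted p = 0.211), Pygo1, a coactivator, by 0.91 ± 0.38 and Frzb, a Wnt antagonist, by 0.71 ± 0.31. Of 23 connexins and pannexins 2 were measured. Panx1 differed from wildtype by -0.82 ± 0.36 and Gja1 by -0.18 ± 0.41 in Gja9_null, and from Gja9_het by -0.62 and 0.19.

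Markers of the cell types that carry these cadherins were set beside them. Of 16 endothelial and pericyte markers, which share their cell type with Cdh5, 7 were measured, with a median difference of -0.01 in Gja9_null against wildtype, and Tek differed by -0.55 and Slc2a1 by 0.49. The summed linear signal of the 7, in units of the sample mean, lay between 4.33 and 6.53 in wildtype, 5.20 and 5.70 in Gja9_null and 4.81 and 5.39 in Gja9_het. These ranges overlap, while for Cdh5 Gja9_null lay apart from wildtype and Gja9_het, which overlapped with each other. Pecam1, Kdr, Flt1 and Vwf had no value. Of 9 epithelial markers, which share their cell type with Cdh1, 2 were measured, Cldn7 (-1.06) and Krt8 (-0.81 ± 0.46). Their summed signal was 0.47 to 0.51 in wildtype, 0.16 to 0.36 in Gja9_null and 0.50 to 0.55 in Gja9_het. It was thus lower in all Gja9_null samples, as Cdh1 was. Each of these markers rests on 1 clone, and even their sum lies below the mean signal of a sample. Over all features, 15.6 percent lay lower in Gja9_null than in wildtype without overlap. Epcam and Krt18 had no value. Of 10 choroid plexus and ependyma markers 2 were measured, Ttr (0.50) and Aqp1 (-0.43). The part of these cell types in the values of Cdh1 and Cdh5 was not tested.

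Over the 42 measured markers of all 9 cell type lists, limma called 0 in each comparison. At an unadjusted p under 0.05 there were 6 in Gja9_null against wildtype, 1 in Gja9_het against wildtype and 8 in Gja9_null against Gja9_het. Over all features the called shares were 0.326, 0 and 0.273 percent and the unadjusted shares 11.6, 2.19 and 15 percent, in this order. In Gja9_null against wildtype the median difference was -0.02 over 9 of 11 meningeal and fibroblast markers (Fn1 -0.54, Ptgds -0.78). It was -0.15 over 6 of 12 neuron markers (Nefm -1.74, Syt1 -0.77) and 0.17 over 3 of 8 erythroid genes (Alas2 -1.45, Hbb-b1 0.39). The genes in brackets are those of smallest p in each list. Above 0 lay 4 of the 9 meningeal and fibroblast markers, 2 of the 6 neuron markers and 2 of the 3 erythroid genes. The median difference was 0.36 over 5 of 10 astrocyte and radial glia markers (Slc1a3 0.90, Fabp7 1.66), of which 3 lay above 0, and 0.04 against Gja9_het. Their summed signal was 7.70 to 10.8 in wildtype, 12.3 to 14.8 in Gja9_null and 8.39 to 11.3 in Gja9_het. It was -0.67 over 4 of 12 oligodendrocyte lineage markers (Pdgfra -0.84, Olig2 -0.34), whose sum was 14.1 to 18.1 in wildtype, 7.19 to 14.6 in Gja9_null and 9.57 to 16.5 in Gja9_het. It was -0.21 over 4 of 11 microglia markers (Tyrobp -0.73, C1qb 0.29). The astrocyte sum was higher in every Gja9_null sample than in any other, though its 5 genes did not all lie one way. Over all features, 7.52 percent lay higher in Gja9_null than in wildtype without overlap, and 10.2 percent higher than in Gja9_het. All 4 measured oligodendrocyte lineage markers had lower means in Gja9_null than in wildtype and Gja9_het, where 41.1 and 36.9 percent of all features had higher ones. The summed signal of these 4 markers overlapped between genotypes.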

How the data were processed

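Per the labels, Trizol extracts of 12 brain samples were used, with 60 micrograms of RNA each, labelled directly in Cy5 or Cy3. For 2 samples the labelling text and the label field name different dyes, and the label field was followed. The deposited values are log2 signals relative to each sample's mean, a scale read off the data, because their antilogs have a mean of 1 in each sample. Background and dye correction, probe filter and normalization: not given in the sources used here. Precision is set by having 2 arrays a genotype.

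Of 28704 probes, 13443 had values in all samples and 15261 in none. Probes were named by the array's probe table (10356 with 1 gene, 560 with several, 2527 with none), with symbols updated by gene number from RefSeq (10263 matched). Clones of a gene were averaged on the log2 scale, giving 9514 features; a probe with several genes or none was a feature of its own. No coordinates are reported, as no genome build was named.

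Differences were fitted with limma 3.58.1 in R 4.3.3 on the 12 samples together. The model had terms for genotype and dye, and arrays entered as random blocks (consensus correlation 0.93, 14.5 degrees of freedom of which the prior gave 6.53), with two-sided p-values, Benjamini-Hochberg adjustment across the 9514 features and calls under 0.05. Single clones were fitted likewise over all probes. The samples of an array were paired by the correlation of the differences between samples 1 and 3 with those between 2 and 4 (0.92 to 0.94). Both colours of an array add degrees of freedom to this test, and a fit on array means is among the alternatives. The labels call the samples biological replicates without naming animals or litters, so p-values measure the spread between these samples, which may be partly technical. The code was tested on simulated data. Same-numbered samples deviated together in wildtype and Gja9_het (r of 0.11 to 0.23 over the 4 numbers, each highest with its own number). They did not in wildtype and Gja9_null (-0.09 to -0.05). In Gja9_null and Gja9_het r was 0.02 to 0.07, highest with the own number for 6 of 8 samples. The labels do not say what a number shares.

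Named genes are the 9 members with their clones, up to 3 genes of smallest p per pathway list in both comparisons of Gja9_null, up to 2 per marker list in Gja9_null against wildtype, and the 2 genes most like each member. The members and lists were chosen with earlier results of these data known. Alternatives covered array block and pairing, replicate number, scaling, samples in the fit, dim probes, clone averaging, spread model and leaving out samples. Figures were made with matplotlib 3.10.9 in Python 3.11.15.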

Additional observations from a re-analysis of the deposited data

Results flagged for a closer look

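In 1 of 87 groups of 4 samples checked (each gene mean and clone in each genotype; genes with 1 clone count under both), 1 sample lay far from the others. Sample 4 of Gja9_null read 1.03 at Cdh2 clone 2, while the other Gja9_null samples lay between 1.31 and 1.35. The limit used singles out about 1 in 20 groups of 4 independent normal values. Samples of an array lie close together and gene means contain their clones, so the count cannot be set against that rate.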

How the results depend on the processing

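Across 24 alternatives and 27 differences (9 genes in 3 comparisons), 586 of 642 values kept their direction and their side of the threshold, 30 turned sign and 26 passed the threshold anew. In many alternatives the direction could not change, because the fitted difference stayed the same. This held for array block, pairing, array means, replicate number, spread model and fits on only the 2 genotypes. It also held when a left-out sample was of the genotype not compared. The count of kept directions therefore says little about how firm they are. Cdh1 and Dlg1 gave no value without dim probes (the lowest part by mean signal), since their clones are among these. Of the 9 genes in Gja9_null against wildtype, 0 were called in the reported fit, 2 with no array block, 3 with the replicate number as a block (Cdh1, Dlg1 and Ctnnd1), 6 with the other array pairing and 1 with local centring. In Gja9_null against Gja9_het 0 became 1, 1, 5 and 1 in the same order, and in Gja9_het against wildtype the other pairing gave 6. Same-numbered samples did not correlate best with each other in wildtype and Gja9_null (0 of 8 samples), while 6 of 8 did in Gja9_null and Gja9_het. The other pairing has an array correlation of -0.91, against 0.93. Leaving out each replicate kept 0 of 9 in every comparison. The other colour of its array stayed in the fit, and colours of an array correlated at 0.99, so leaving out 1 sample could change little. The cause of the calls under the other settings was not tested.

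Over all features, 31 calls in Gja9_null against wildtype became 1464 with no array block, 2 with array means, 7122 with the other pairing, 1770 with the replicate block, 5 with quantile normalization (5 higher and 0 lower, against 11 and 20), 56 with local centring (33 higher and 23 lower), 3 with only the 2 genotypes, 7 without dim probes and 51 without the first Gja9_null array (5 higher and 46 lower), and 13 to 25 without 1 replicate. For Gja9_null against Gja9_het, 26 became 2119, 0, 7543, 2490, 0, 134, 1, 0 and 95 in that order, 0 with median centring, 13 with the brightest clone, 5 with an intensity trend, and 0 to 20 without 1 replicate (0 without wildtype 3 or Gja9_het 2, 3 or 4). For Gja9_het against wildtype, 0 became 70 with no array block, 5747 with the other pairing, 135 with the replicate block and 1 with local centring, and stayed 0 without any 1 replicate. Median centring moved the median of all features in Gja9_null against Gja9_het from -0.17 to -0.06, and quantile normalization that in Gja9_null against wildtype from -0.10 to 0.02.

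The values that turned sign were near 0 in the reported fit, except Dlg1 (-0.58). In Gja9_null against wildtype, Ctnna2 read 0.060 with median centring, 0.0051 and 0.010 with quantile normalization and local centring and -0.12 to 0.069 without 1 replicate. Ctnna1 read -0.17 with local centring, -0.31 without dim probes or with the brightest clone, -0.10 without the first Gja9_null array and -0.066 to 0.13 without 1 replicate. Cdh2 read -0.0046 with local centring and -0.37 with the brightest clone. In Gja9_null against Gja9_het, Ctnnb1 read 0.093, 0.047 and 0.28 with median centring, quantile normalization and local centring, 0.41 without dim probes, 0.51 with the brightest clone, 0.40 without the first Gja9_null array and -0.065 to 0.016 without 1 replicate. Cdh2 read 0.077 with median centring and -0.083 to 0.013 without 1 replicate, Ctnna1 0.010 and 0.092 with median centring and quantile normalization, Ctnna2 -0.32 without the first Gja9_null array and -0.064 to 0.12 without 1 replicate, and Dlg1 0.14 with local centring. In Gja9_het against wildtype, Cdh5 read -0.17 with local centring.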

Other observations

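Pard3, a partner of the junction scaffolds, depended on the setting. Its difference of -2.37 between Gja9_null and Gja9_het (limma adjusted p = 0.0652) was -2.05 without the first Gja9_null array (adjusted p = 0.0090) and -0.80 after local centring (adjusted p = 0.136). Its single clone cannot be set against another clone. Ctnnb1 clone 2, which differed by 1.09 between Gja9_het and wildtype, gave 1.07 after local centring (limma adjusted p = 0.516) and 1.09 on array means (adjusted p = 1.0). Tjp1 clone 1 differed between Gja9_null and Gja9_het by 0.96, and by 0.34 without the first Gja9_null array. These settings were chosen for single clones and for Pard3 after seeing the data.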
